A study of Mus musculus with 4 samples.

Results

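The 6 genes described here encode STAT factors: Stat2, Stat3, Stat4, Stat5a, Stat5b and Stat6. They were chosen by name, as were the gene lists used later, with earlier results of these data known. Ranks and p-values below are therefore not those of genes picked without the data. Transcript counts (unique molecular identifiers, UMIs) of the genes were taken from both messenger RNA libraries, which list 32285 genes. The samples were immune cells of BeCon-bearing B6 mice, a mouse model in a study of ovarian cancer. Mice received YKL-05-099, an inhibitor of the salt-inducible kinases (SIKs), or vehicle, and both groups carried the tumour. Viable CD45+ MHCI+ cells were sorted from ascites, spleen and blood, so every value below is from a sorted immune fraction. Each mouse carried its own hashtag, an antibody-bound barcode read beside the RNA. Ascites came from 4 mice of each arm, and both other tissues from 3 vehicle mice (numbers 1 to 3) and 3 treated mice (numbers 2 to 4). Dose, schedule, age and sex of the mice were not given in the sources used here.

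STAT proteins wait in the cytoplasm until Janus kinases (JAKs) bound to a cytokine receptor phosphorylate them, after which they pair, enter the nucleus and bind DNA. STAT4 is best known downstream of IL-12 in T and NK cells, where it drives interferon-gamma, and STAT2 acts with IRF9 downstream of type I interferon. STAT6 serves IL-4 and IL-13, STAT3 serves IL-6 and IL-10, and STAT5A and STAT5B serve IL-2, IL-7 and GM-CSF. SIKs phosphorylate the CRTC coactivators of CREB and the class IIa histone deacetylases that hold MEF2 factors in check. Transcript counts measure none of the STAT proteins' phosphorylation.

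In the mouse GRCm38 annotation (GENCODE M21), Stat4 (ENSMUSG00000062939) lies on the plus strand at chr1:51987148-52107189. Stat6 (ENSMUSG00000002147) and Stat2 (ENSMUSG00000040033) lie on the plus strand of chromosome 10, at chr10:127642986-127660957 and chr10:128270559-128292849. The other members are neighbours on chromosome 11. Stat5b (ENSMUSG00000020919, minus strand) occupies chr11:100780731-100850724, Stat5a (ENSMUSG00000004043, plus strand) chr11:100859351-100885169 and Stat3 (ENSMUSG00000004040, minus strand) chr11:100885098-100939540. The 3' ends of Stat5a and Stat3 overlap by 72 bases on opposite strands, and Stat6 overlaps the 3' end of Nab2 by 40 bases on the opposite strand, so reads there could be counted for either gene if strand was not used. The counting's strand setting was not given in the sources used here. Stat4 overlaps Gm28177, a processed transcript, by 29929 bases on the same strand, and Gm3940, a processed pseudogene, by 432 bases on the opposite strand. Neither is among the genes that the libraries list, and their part in the Stat4 counts was not tested.

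RefSeq promoter windows (GRCm38.p6, from 250 bases before to 50 after a start site) were found for all 6 members, as 9 windows of 32851 in the table. The 4 windows printed here belong to Stat4, Stat2 and Stat6, the members whose level rose in treated mice in at least 1 cell class. Elements of CREB and MEF2 were searched because SIKs act on their cofactors, and those of STATs and interferon because STATs bind them. Capitals mark the searched motif found in each. For Stat4, the first start (chr1:51986898-51987197, plus strand) holds TGACG, a short form of the CREB response element, beginning 11 bases after the start site. The second start (chr1:52007990-52008289, plus strand) holds an interferon-stimulated response element (GAAA, any 2 bases, GAAA) beginning 97 bases before it. The Stat2 window (chr10:128270248-128270547, plus strand) holds the same element on the other strand, and the Stat6 window (chr10:127642736-127643035, plus strand) holds the short form as CGTCA.
Stat4, first start: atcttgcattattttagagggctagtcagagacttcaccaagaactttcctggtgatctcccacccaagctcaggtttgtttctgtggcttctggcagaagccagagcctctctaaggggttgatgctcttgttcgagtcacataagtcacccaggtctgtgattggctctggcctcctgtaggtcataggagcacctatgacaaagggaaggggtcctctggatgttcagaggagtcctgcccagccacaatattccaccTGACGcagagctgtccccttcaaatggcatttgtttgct
Stat4, second start: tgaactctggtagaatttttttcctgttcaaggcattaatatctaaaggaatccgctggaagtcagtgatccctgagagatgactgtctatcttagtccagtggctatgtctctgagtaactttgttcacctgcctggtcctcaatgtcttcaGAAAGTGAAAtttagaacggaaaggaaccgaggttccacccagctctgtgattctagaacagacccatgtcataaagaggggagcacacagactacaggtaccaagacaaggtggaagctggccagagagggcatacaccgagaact
Stat2: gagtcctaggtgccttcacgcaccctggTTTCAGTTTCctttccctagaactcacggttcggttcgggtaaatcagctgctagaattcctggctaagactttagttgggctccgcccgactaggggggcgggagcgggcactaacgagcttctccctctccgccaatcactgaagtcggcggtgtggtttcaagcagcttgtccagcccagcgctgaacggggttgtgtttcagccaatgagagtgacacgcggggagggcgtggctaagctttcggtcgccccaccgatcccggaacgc
Stat6: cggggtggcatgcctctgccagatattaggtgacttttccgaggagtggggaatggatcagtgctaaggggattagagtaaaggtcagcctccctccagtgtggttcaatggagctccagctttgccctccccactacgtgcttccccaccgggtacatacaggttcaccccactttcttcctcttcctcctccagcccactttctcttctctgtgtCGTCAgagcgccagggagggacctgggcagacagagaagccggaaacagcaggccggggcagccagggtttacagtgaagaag
Both strands were searched, and the short form is part of the full element. Among all 32851 windows, 20.8% hold TGACG on either strand, 3.44% the interferon element, 1.79% the full element TGACGTCA, 8.30% the STAT element TTCNNNGAA and 0.557% the MEF2 motif. The windows of the 6 members hold no match to TGACGTCA, TTCNNNGAA or the MEF2 motif. Stat5a has 3 short forms in 1 window, and those of Stat3 and Stat5b hold none of the searched motifs. A match is a run of letters in these windows and was not measured as a bound site.

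The ascites library held 13688 barcodes with 134034611 UMIs, and the spleen and blood library 14792 barcodes with 92064806 UMIs. The libraries shared 52 barcodes. After filters, the hashtags assigned 4368 ascites cells and 5682 spleen and blood cells to single mice, with a median of 5575 and 5654 UMIs per cell. Cell classes were called from marker genes that include no STAT gene, and these gates took 77.5% and 86.3% of those cells. Levels are the gene's UMIs per 1000000 UMIs (CPM) of a class summed per mouse, and each mouse is 1 replicate. Both arms of a tissue were in 1 library, so free RNA in the droplets was common to both arms. Levels are not per transcript length, so they are compared between classes and arms for 1 gene at a time.

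In vehicle mice, levels were ordered over 12 tissue and class groups with at least 20 cells in at least 2 mice, and "highest" and "lowest" below refer to these. Stat4 was highest in blood NK cells and lowest in conventional type 1 dendritic cells (cDC1) of ascites and in spleen plasma and erythroid cells, while the other members followed different orders. Each class was set against the mean of the other classes of its tissue with edgeR's quasi-likelihood test, with the mouse as a block and Benjamini-Hochberg adjustment over all genes, and 25 of 69 tested pairs of a member and a class passed an adjusted p of 0.05. Many genes separate cell classes, so these counts are read against the share of all genes that passed. In ascites, 3 members passed in B cells (53.6% of all genes passed there), 3 in cDC1 (43.4%), 2 in conventional type 2 dendritic cells (cDC2, 20.4%), 5 in macrophages (60.1%) and 3 in T cells (44.7%). In spleen, 1 passed in B cells (20.1%), 1 in erythroid cells (13.2%), 0 in plasma cells (19.1%) and 3 in T cells (27.5%), and in blood 2 passed in B cells (32.7%), 1 in NK cells (23.2%) and 1 in T cells (23.7%). No class's count is read as particular to the STAT genes.

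**Figure D1:**
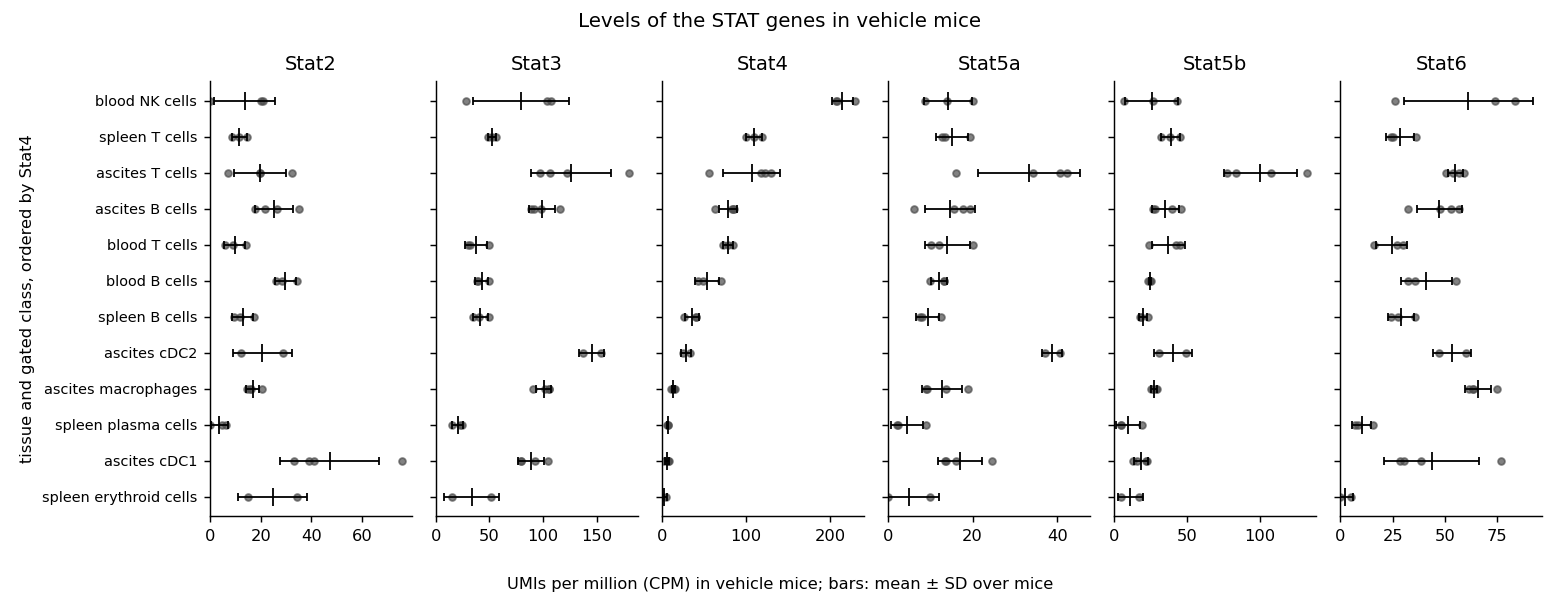
Levels of the 6 STAT members in vehicle mice (x axes, CPM) over 12 tissue and class groups (y axis); points are mice, and bars show the mean and SD. Among these groups the mean of Stat4 is highest in blood NK cells (215 CPM), and that of Stat2 in ascites cDC1 (47.1 CPM).

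Stat4 was most abundant in blood NK cells of vehicle mice, at 215 ± 12.5 CPM (SD, n = 3), without overlap with the other 11 groups. NK cells of ascites (183 to 321 CPM, 8 to 18 cells per mouse) and spleen (173 to 329 CPM, 8 to 20 cells) were too few for the ordering and overlapped them. Spleen T cells (110 ± 9.38, n = 3) and ascites T cells (107 ± 33.8, n = 4) overlapped, and ascites T cells also overlapped ascites B cells (79.0 ± 10.8, n = 4), which overlapped blood T cells (78.5 ± 5.79, n = 3). Blood B cells (53.9 ± 14.1, n = 3) and spleen B cells (35.8 ± 7.91, n = 3) came next, without overlap between them. The level was 28.8 ± 5.68 CPM in ascites cDC2 (n = 2), overlapping spleen B cells, and 13.6 ± 2.16 in ascites macrophages (n = 4). At the lower end, spleen plasma cells (6.72 ± 0.436, n = 3), ascites cDC1 (6.25 ± 2.68, n = 4) and spleen erythroid cells (2.51 ± 3.55, n = 2) could not be ordered by their spread. Within ascites, Stat4 was higher in T cells by 2.26 ± 0.21 (log2, SE) and in B cells by 1.69 ± 0.18 than in the other classes, and lower in cDC1 by 2.74 ± 0.28 and in macrophages by 1.39 ± 0.20, with every adjusted p at or below 1.33e-08. In spleen it was higher in T cells (log2 3.18 ± 0.32, adjusted p = 4.31e-14) and lower in erythroid cells (-3.23 ± 1.06, adjusted p = 0.0297), where it rested on 1 UMI. The T cell difference was set against a mean that included these erythroid cells and plasma cells, with 9 Stat4 UMIs. That call was kept in all 16 alternatives, at 1.41 to 3.25. In blood Stat4 was higher in NK cells (1.34 ± 0.20, adjusted p = 6.43e-10) and lower in B cells (-1.32 ± 0.17, adjusted p = 3.26e-14). The erythroid call was lost in 4 of 9 alternatives, among them without vehicle mouse 3 (-3.22, adjusted p = 0.0530), and the blood B cell call in 3 of 16.

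Stat2, the partner of IRF9, was highest in ascites cDC1 (47.1 ± 19.4 CPM, n = 4) and lower in ascites macrophages (16.9 ± 2.64, n = 4). Plasmacytoid dendritic cells of ascites, a class known for making type I interferon, stood at 94.3, 231 and 362 CPM in 3 vehicle mice but had 2 to 13 cells per mouse. It exceeded the other ascites classes in cDC1 by 1.33 ± 0.20 (adjusted p = 1.05e-07) and lay below them in macrophages by 0.69 ± 0.21 (log2 -0.69, adjusted p = 0.00311). In blood it was higher in B cells (log2 1.27 ± 0.39, adjusted p = 0.00418), at 29.6 ± 4.13 CPM (n = 3), a call lost without vehicle mouse 3 (1.23, adjusted p = 0.0690). The mouse with the highest cDC1 level stood at 75.8 CPM and the one with the lowest at 33.0, so the spread within that class was wide.

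Stat5b was highest in ascites T cells (100 ± 24.9 CPM, n = 4), above the other ascites classes by 1.67 ± 0.20 (log2, adjusted p = 7.16e-11). It was also higher in T cells of spleen (1.496 ± 0.36, adjusted p = 0.000579) and of blood (1.02 ± 0.33, adjusted p = 0.0114), and lower in ascites cDC1 (-1.08 ± 0.21) and macrophages (-0.63 ± 0.16). Stat5a, its close relative, was highest in ascites cDC2 (38.9 ± 2.38 CPM, n = 2) and T cells (33.4 ± 12.04, n = 4), with log2 differences of 1.01 ± 0.35 (adjusted p = 0.0303) and 0.81 ± 0.30 (adjusted p = 0.0247), and was lower in ascites B cells (-0.70 ± 0.27) and macrophages (-0.94 ± 0.22). Migratory dendritic cells of ascites, of which 1 vehicle mouse had at least 20, stood at 82.3 to 128 CPM of Stat5a. Among the ascites classes in the ordering, the mean of Stat3 lay between 88.8 CPM in cDC1 and 145 CPM in cDC2. Ascites classes too few for the ordering reached higher levels in vehicle mice. Stat3 stood there at 297 to 438 CPM in NK cells (8 to 18 cells per mouse), 140 to 396 in neutrophils and 134 to 197 in classical monocytes. Against the other ordered classes, Stat3 was higher in cDC2 (0.56 ± 0.18, adjusted p = 0.0164) and lower in B cells (-0.33 ± 0.13, adjusted p = 0.0243). The B cell call of Stat3 was lost in 10 of 16 alternatives, without any 1 of the 4 vehicle mice among them (-0.19 to -0.31, adjusted p up to 0.274), and with at least 50 cells per mouse the difference was -0.05 (adjusted p = 0.760). Its cDC2 call was lost in 4 of 12. Stat6 was highest in ascites macrophages (65.7 ± 6.26 CPM, n = 4, log2 0.37 ± 0.14, adjusted p = 0.0154), overlapping blood NK cells (61.0 ± 30.8, n = 3). Ascites neutrophils, of which 1 vehicle mouse had at least 20, stood at 46.6 to 205 CPM of Stat6. In spleen, Stat6 passed in B and T cells at 1.23 ± 0.45 (adjusted p = 0.0369) and 1.20 ± 0.45 (adjusted p = 0.0344). Those spleen differences were set against a mean that included erythroid cells, of which 2 mice gave 1 Stat6 UMI. The calls were lost when classes with under 50 cells per mouse, erythroid and plasma cells, were left out (0.01 and -0.01). Which of these classes mattered was not tested. Calls were also lost without single mice for Stat5a in ascites T cells (vehicle mouse 4, 0.58, adjusted p = 0.324) and B cells (vehicle mouse 3, -0.24, adjusted p = 0.525, and also mice 1 and 4), Stat5b in blood T cells (vehicle mouse 1, 0.62, adjusted p = 0.329) and Stat6 in ascites macrophages (vehicle mouse 1, 0.37, adjusted p = 0.0536).

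Over the 12 vehicle groups, the genes whose log2 profile was most like that of Stat4 among 8364 genes were Mctp2 (Pearson r = 0.954), Lonp2 (0.951), Mfng (0.948), Ice1 (0.945) and Panx1 (0.942). Of the other members, Stat5b had r = 0.656, Stat6 0.519, Stat5a 0.414, Stat3 0.280 and Stat2 -0.186. The groups share mice, libraries and depth, so these values describe the groups only.

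In mice treated with YKL-05-099, Stat4 was higher in B cells of all 3 tissues and in both conventional dendritic cell classes of ascites, Stat2 in ascites macrophages and Stat6 in ascites B cells. The test was edgeR's quasi-likelihood test on the summed counts of each class, adjusted over all genes tested. Of 78 pairs of a member and a class, 60 passed the filter on low counts and 7 passed an adjusted p of 0.05. An unadjusted p of 0.05 was passed by 11, and the share of all genes at that limit was not taken. All 7 that passed the adjusted limit were higher in treated mice, 5 of 28 tested pairs being in ascites, 1 of 18 in spleen and 1 of 14 in blood. In ascites B cells 2 of 5 tested members passed, against 7.22% of all genes, and 1 of 6 passed in each of cDC1 (16.1% of all genes), cDC2 (3.48%) and macrophages (13.6%). None of 5 passed in ascites T cells (0.785%). In spleen, 1 of 6 passed in B cells (4.47%) and none in T cells (2.42%), CD8 T cells (1.74%) or CD4 T cells (0.367%). In blood, 1 of 6 passed in B cells (1.01%) and none in T cells (0.227%), CD8 T cells (0.0411%) or NK cells (0.543%). With 1 passing member of 6, the cDC1 and macrophage shares lie near those of all genes.

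**Figure D2:**
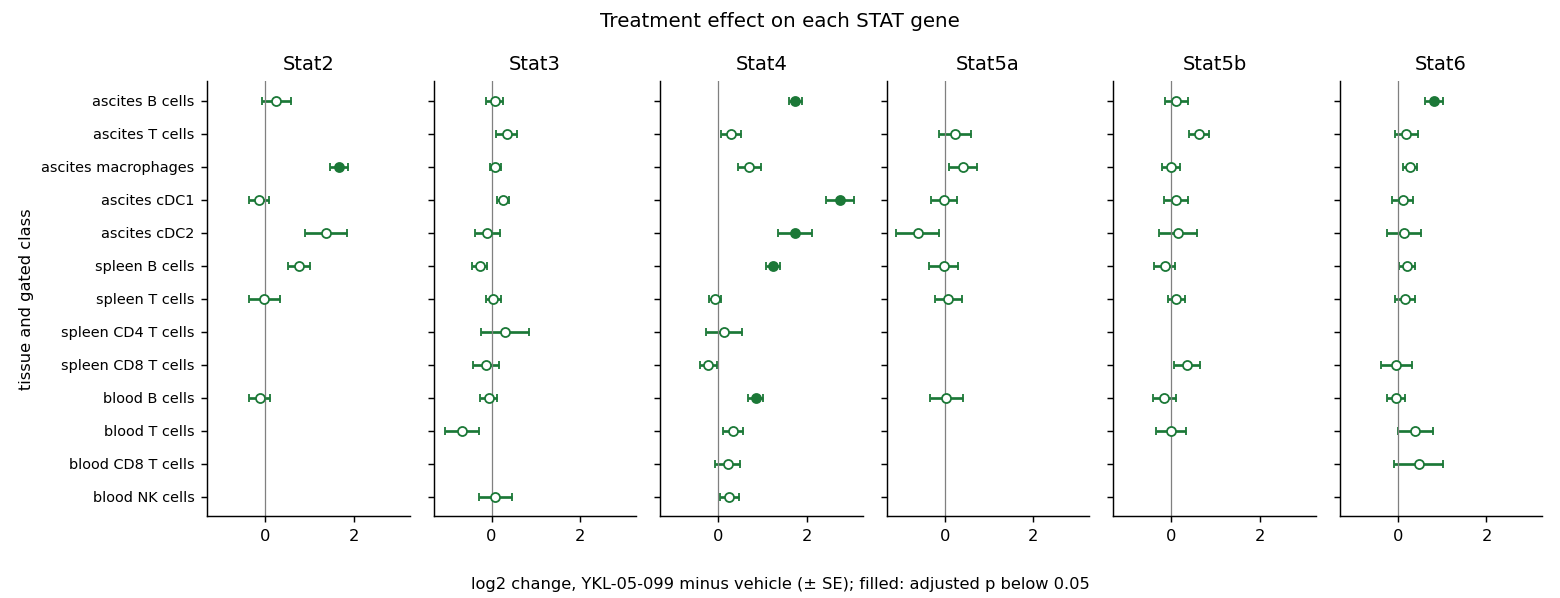
Change of each STAT member after treatment (x axis, log2 of treated over vehicle, with its standard error) in each tested class; filled points passed an adjusted p of 0.05. The 7 that passed lie to the right of 0, and the largest is Stat4 in ascites cDC1 at 2.74.

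Stat4 in ascites B cells stood at 84.4, 82.9, 62.9 and 86.0 CPM in the 4 vehicle mice and at 305, 258, 276 and 295 CPM in the 4 treated mice. The arms did not overlap, and the lowest treated mouse was above all vehicle mice. The mean rose from 79.0 ± 10.8 to 283 ± 20.8 CPM (SD, n = 4 per arm), a log2 change of 1.74 ± 0.15 (SE), or 3.35-fold, with an adjusted p of 1.25e-11. By p-value it ranked 1 of 5432 genes tested in these cells. The values rested on 31 to 144 Stat4 UMIs per vehicle mouse and 36 to 152 per treated mouse. The level in treated B cells was above that in ascites T cells of either arm, whose highest mouse had 149 CPM.

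In spleen B cells, Stat4 stood at 40.1, 26.6 and 40.6 CPM in vehicle mice and at 89.6, 81.1 and 65.3 CPM in treated mice, again without overlap. The log2 change was 1.24 ± 0.15, or 2.36-fold (adjusted p = 1.93e-07, rank 15 of 8077). In blood B cells it stood at 42.8, 69.8 and 49.1 CPM in vehicle mice and 88.8, 72.3 and 111 CPM in treated mice. The arms were close there, with the lowest treated mouse just above the highest vehicle mouse, and the log2 change was 0.85 ± 0.16, or 1.80-fold (adjusted p = 0.000471, rank 17 of 6931). A limit of 5% mitochondrial UMIs, which leaves fewer cells, ended the call in spleen (1.09, adjusted p = 0.268) and in blood (1.03, adjusted p = 0.318).

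The change of Stat4 in B cells was larger in ascites than in blood by 0.89 ± 0.22 (log2), an interaction with an adjusted p of 0.00907 (2.3% of all genes passed). It did not pass for ascites against spleen (0.48 ± 0.22, adjusted p = 0.338; 2.51% passed) or for spleen against blood (0.40 ± 0.26, adjusted p = 0.670; 0.789% passed). The ascites to blood difference was lost without vehicle mouse 2 (0.69, adjusted p = 0.185), without treated mouse 3 (0.80, adjusted p = 0.0642) or with 5% mitochondrial UMIs (0.44, adjusted p = 0.864). Tissue and library cannot be told apart in the ascites comparisons. Mouse numbers recur between the tissues of an arm, and these fits did not use them as a block. With that block the ascites to blood call was kept.

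**Figure D3:**
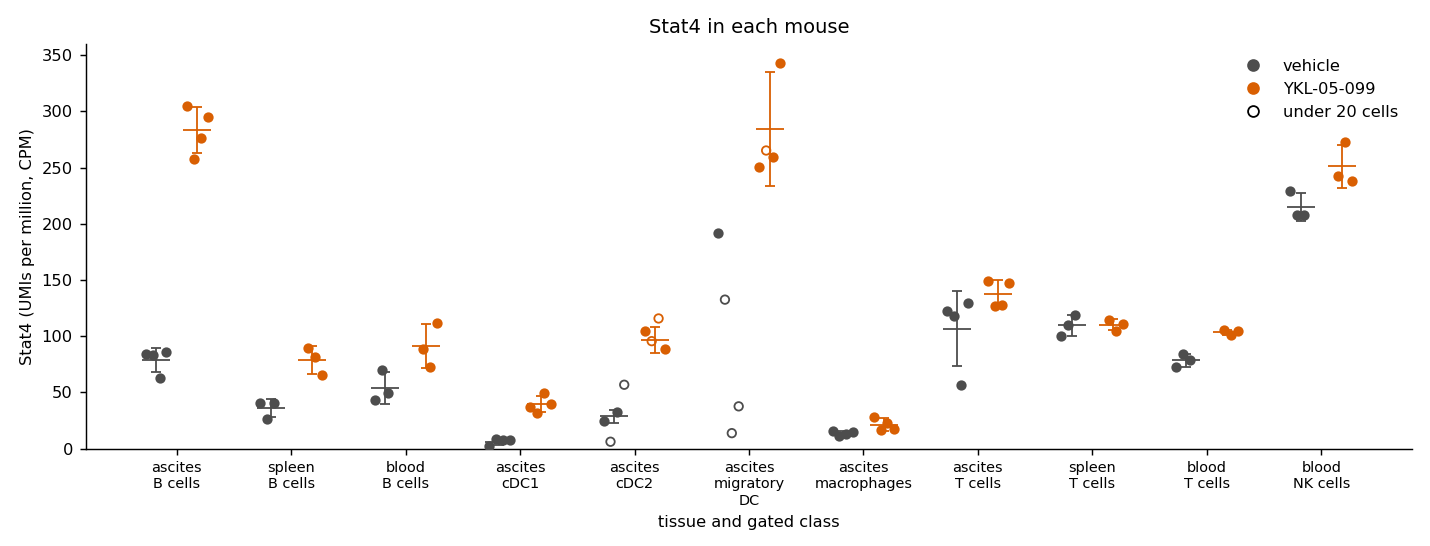
Stat4 level per mouse (y axis, CPM) in each class of ascites, spleen and blood (x axis), with vehicle and treated mice in separate colours. Bars show the mean and SD of mice with at least 20 cells, and open circles are mice with fewer. Treated B cells of ascites lie between 258 and 305 CPM, and vehicle B cells between 62.9 and 86.0.

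Marker levels of other cells were read beside the ascites B cell result. The summed level of 5 T cell markers was 14.9 to 22.8 CPM in vehicle and 9.52 to 50.1 CPM in treated B cells, against 1573 to 1832 CPM in ascites T cells. All 6 NK markers had 0 UMIs in the B cells of every treated mouse, and their sum was 1.76 to 6.09 CPM in vehicle mice. Cells that also met the T or NK gate, at least 3 markers of either list, had been left out. Low T and NK sums are therefore partly set by the gates, and the part of those cells in the result was not tested. The summed level of 5 migratory dendritic cell markers was higher in treated B cells (419 to 572 CPM) than in vehicle B cells (290 to 355 CPM), and Ccr7, a chemokine receptor that B cells also express, made up 88.4% to 94.9% of it. The part of Ccr7-bearing cells in the result was not tested. In B cells with no UMI of another lymphoid lineage's markers, the change of Stat4 was 1.73 (adjusted p = 5.02e-12).

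One B cell cluster of ascites held 82 vehicle cells and 2 treated cells. Without the clusters held almost wholly by 1 arm, a setting chosen after seeing the data, Stat4 in ascites B cells was higher by 1.47 (adjusted p = 5.51e-11), and the ascites to blood difference fell to 0.61 (adjusted p = 0.217). With every cell thinned to 2000 UMIs, 13.6% to 21.5% of vehicle and 42.9% to 45.7% of treated ascites B cells had a Stat4 UMI (22.3% to 35.2% and 56.1% to 69.3% unthinned). Thinning left out 15 vehicle and 8 treated cells. In ascites macrophages, a class with little Stat4, the thinned shares were 0.980% to 5.26% and 2.38% to 12.7%. Median depth was 3694 to 4172 UMIs in B cells and 11418 to 17903 in macrophages. The thinned shares of spleen B cells were 7.59% to 11.3% in vehicle and 13.7% to 17.3% in treated mice, and those of blood B cells 8.42% to 12.1% and 12.99% to 17.5%.

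By its estimate, the largest log2 change of Stat4 among the tested classes was in cDC1 of ascites, though its difference from ascites B cells did not pass. In cDC1, which cross-present antigen to CD8 T cells, Stat4 stood at 2.27, 8.06, 7.49 and 7.17 CPM in vehicle mice, from 3 to 7 UMIs per mouse. In treated mice it stood at 37.3, 31.8, 49.3 and 39.8 CPM, from 20 to 44 UMIs per mouse, with no overlap between the arms. The log2 change was 2.74 ± 0.31 (adjusted p = 1.50e-07, rank 33 of 6285), from 6.25 ± 2.68 to 39.6 ± 7.31 CPM (n = 4 per arm). The vehicle counts are low, and the gene passed the count filter through the treated arm. It was also called with no filter on low counts.

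The T cell markers were at 2.997 to 8.33 CPM in vehicle and 4.52 to 6.72 CPM in treated cDC1, and the NK markers at 6.06 to 13.5 and 3.36 to 15.9 CPM. These lists overlapped between the arms. Cells that also met the T or NK gate had been left out of cDC1 too, and the part of other cells in the Stat4 result was not tested. Unthinned, 4.05% to 14.7% of vehicle cDC1 and 30.6% to 56.2% of treated cDC1 had a Stat4 UMI, against 14.3% to 25.5% of treated and 14.7% to 24.3% of vehicle macrophages, at 16277 to 20093 UMIs per cell in cDC1. The vehicle share was at or below that of vehicle macrophages, and whether it was background was not tested. At 2000 UMIs the cDC1 shares were 0% to 2.56% and 2.08% to 5.71%, no higher than those of macrophages, so no change is read from the thinned shares.

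In cDC2, which present antigen mainly to CD4 T cells, 2 mice per arm had at least 20 cells. Stat4 stood at 24.8 and 32.8 CPM in those vehicle mice and at 105 and 88.2 CPM in those treated mice, a log2 change of 1.74 ± 0.38 (adjusted p = 0.00435). In the mice with fewer cells it stood at 6.04 and 56.7 CPM in vehicle and 95.5 and 116 CPM in treated mice, so the lowest treated mouse remained above the highest vehicle mouse. The call was lost with DESeq2's Wald test (1.76, adjusted p = 0.104) and without vehicle mouse 1 (adjusted p = 0.0760), vehicle mouse 3 (0.0607) or treated mouse 1 (0.0553). The T cell markers also differed there, at 4.96 to 5.80 CPM in vehicle and 11.98 to 19.2 CPM in treated cDC2, and their part in the result was not tested.

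Migratory dendritic cells, which carry antigen to lymph nodes, were too few for the rule of 20 cells and were tested with at least 10 cells per mouse (11 to 21 vehicle and 18 to 50 treated cells). Stat4 stood at 192, 132.5, 13.7 and 37.5 CPM in vehicle mice and at 250.5, 265, 259.6 and 343 CPM in treated mice. The arms did not overlap, and the vehicle mice were widely spread. The log2 difference of 1.39 ± 0.45 did not pass (adjusted p = 0.110), and none of the 4 tested members passed there, against 6.83% of all genes. Without vehicle mouse 1, which had the highest vehicle level, the difference was 1.96 (adjusted p = 0.00708). Stat3 differed by 0.49 ± 0.18 (adjusted p = 0.103), Stat5a by -0.76 ± 0.28 (adjusted p = 0.109) and Stat6 by 0.22 ± 0.33 (adjusted p = 0.763).

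The change of Stat4 in ascites B cells was set against that in other ascites classes of the same mice. It was larger than in T cells by 1.42 ± 0.26 (adjusted p = 0.00202; 0.817% of all genes passed) and than in macrophages by 1.02 ± 0.28 (adjusted p = 0.0253; 4.84%). Against cDC1 the difference was -0.97 ± 0.36 (adjusted p = 0.125; 3.52%) and against cDC2 0.27 ± 0.47 (adjusted p = 0.945; 0.736%), and neither passed. The difference from macrophages was lost without treated mouse 2 (0.94, adjusted p = 0.0530) or 4 (0.99, adjusted p = 0.0810), and was 0.46 (adjusted p = 0.585) without the clusters held by 1 arm.

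In T and NK cells, where Stat4 is best known, no tested difference passed. NK cells were tested in blood only, since those of ascites and spleen were too few. Ascites T cells stood at 123, 118, 56.6 and 129 CPM in vehicle and 149, 127, 128 and 147 CPM in treated mice, a log2 difference of 0.29 ± 0.22 (adjusted p = 0.750). The arms overlapped, and vehicle mouse 3 was far below the rest. Spleen T cells differed by -0.07 ± 0.13. Blood T cells did not overlap between arms (72.8 to 84.4 CPM in vehicle, 101 to 106 CPM in treated mice), with a difference of 0.35 ± 0.23 (adjusted p = 0.791). Blood NK cells had 215 ± 12.5 CPM in vehicle and 251 ± 18.9 CPM in treated mice (n = 3 per arm; 0.25 ± 0.21, adjusted p = 0.864). Among subsets, the difference was 0.14 ± 0.40 in spleen CD4 T cells, -0.22 ± 0.19 in spleen CD8 T cells and 0.22 ± 0.28 in blood CD8 T cells.

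In ascites macrophages, Stat4 stood at 15.8, 10.8, 13.1 and 14.7 CPM in vehicle and 28.3, 16.3, 23.0 and 17.1 CPM in treated mice. The arms did not overlap, but the log2 difference of 0.71 ± 0.25 did not pass (adjusted p = 0.0733). It passed under 6 of 20 other settings, among them without treated mouse 2 (0.83, adjusted p = 0.0439) and without the clusters held by 1 arm (1.04, adjusted p = 0.0383). The T cell markers were at 2.93 to 4.93 CPM in vehicle and 5.14 to 27.2 CPM in treated macrophages, and their part in the difference was not tested.

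Stat2 rose in ascites macrophages. It stood at 20.7, 15.9, 14.7 and 16.3 CPM in vehicle mice and 61.7, 36.3, 56.9 and 49.3 CPM in treated mice, and every treated mouse was above every vehicle mouse. The mean went from 16.9 ± 2.64 to 51.0 ± 11.1 CPM (n = 4 per arm), a log2 change of 1.66 ± 0.21, or 3.17-fold (adjusted p = 3.64e-05, rank 36 of 7910). One macrophage cluster held 236 vehicle cells and 1 treated cell, and without such clusters the change was 1.55 (adjusted p = 0.000356). The change in macrophages was larger than that in ascites B cells, the difference of B cells minus macrophages being -1.45 ± 0.37 (adjusted p = 0.0130). That difference was lost without vehicle mouse 1 (-1.30, adjusted p = 0.0701), vehicle mouse 3 (-1.29, adjusted p = 0.0502) or treated mouse 4 (-1.18, adjusted p = 0.128), and with at most 5% mitochondrial UMIs (-1.32, adjusted p = 0.606) or at least 50 cells per mouse (-1.17, adjusted p = 0.164).

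In cDC2, Stat2 stood at 12.4 and 29.0 CPM in vehicle and 53.9 and 57.5 CPM in treated mice, but the difference of 1.37 ± 0.47 did not pass (adjusted p = 0.111). The mice with under 20 cells stood at 54.4 and 42.6 CPM in vehicle and 90.7 and 42.4 CPM in treated mice, so that the arms overlapped with them. In spleen B cells it stood at 12.03, 17.5 and 9.44 CPM in vehicle and 20.2, 20.2 and 22.7 CPM in treated mice (0.76 ± 0.24, adjusted p = 0.0577), and it passed without vehicle mouse 2 (1.03, adjusted p = 0.0382). Ascites cDC1, the class with the highest vehicle level, had 47.1 ± 19.4 CPM in vehicle and 43.2 ± 8.43 CPM in treated mice. Over the 7 classes where Stat2 was tested, the log2 difference ran from -0.12 to 1.66.

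**Figure D4:**
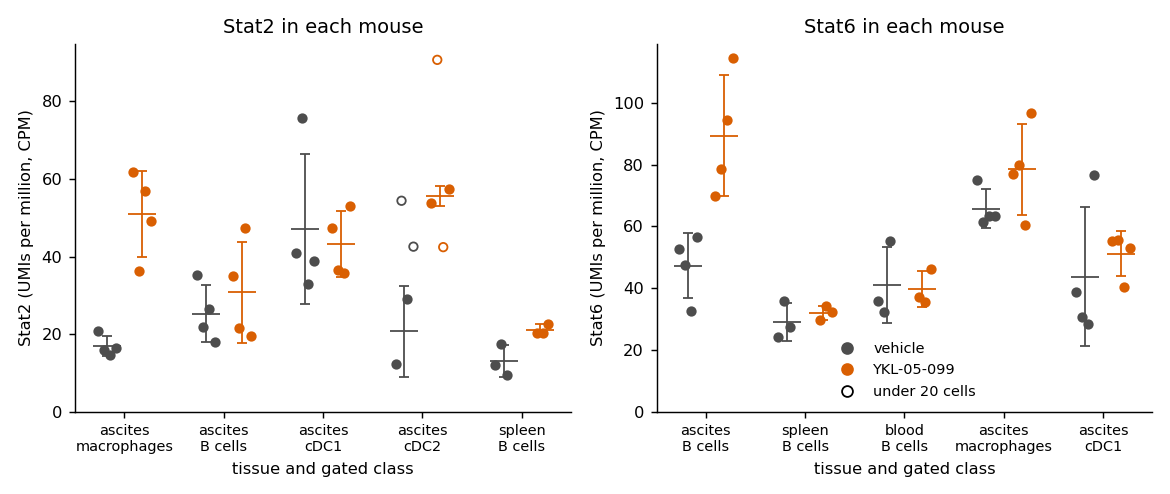
Stat2 and Stat6 levels per mouse (y axes, CPM) by class (x axis), with vehicle and treated mice in separate colours, bars at the mean and SD of mice with at least 20 cells and open circles for mice with fewer. Stat2 separates the arms in ascites macrophages (14.7 to 20.7 against 36.3 to 61.7 CPM) and Stat6 in ascites B cells (32.5 to 56.7 against 69.8 to 114 CPM).

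Stat6, the factor of IL-4 and IL-13 signalling, rose in ascites B cells. It stood at 52.7, 47.4, 32.5 and 56.7 CPM in vehicle mice and 69.8, 78.7, 94.5 and 114 CPM in treated mice. The arms did not overlap, and the mean went from 47.3 ± 10.6 to 89.4 ± 19.6 CPM (n = 4 per arm), a log2 change of 0.82 ± 0.21, or 1.77-fold (adjusted p = 0.00804). The call was lost without treated mouse 4, the highest one (0.61, adjusted p = 0.194), and with at most 5% mitochondrial UMIs (0.89, adjusted p = 0.379). In B cells of spleen (0.22) and blood (-0.03) Stat6 did not pass, and the difference from ascites did not pass either, at 0.57 ± 0.28 (adjusted p = 0.378) and 0.83 ± 0.29 (adjusted p = 0.131). In ascites macrophages, the class with its highest mean among the 12 ordered vehicle groups, Stat6 had 65.7 ± 6.26 CPM in vehicle and 78.5 ± 14.8 CPM in treated mice. The arms overlapped (0.27 ± 0.15, adjusted p = 0.255).

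Stat3, Stat5a and Stat5b passed in no class. Stat3 was tested in 12 classes, with log2 differences from -0.65 to 0.34 and a smallest adjusted p of 0.228, in ascites cDC1 (88.8 ± 12.1 CPM in vehicle, 112 ± 12.9 CPM in treated mice, 0.25 ± 0.14). In ascites macrophages it had 101 ± 7.16 and 104 ± 17.7 CPM, with overlapping arms. In blood T cells the arms did not overlap (30.1 to 49.1 CPM in vehicle, 22.3 to 27.4 CPM in treated mice), and the difference of -0.65 ± 0.38 did not pass (adjusted p = 0.720). Stat5a was tested in 7 classes (-0.61 to 0.41, smallest adjusted p 0.448). In cDC2 its arms did not overlap, at 37.2 and 40.6 CPM in vehicle and 24.0 and 26.9 CPM in treated mice, and the difference of -0.61 ± 0.49 did not pass. Stat5b was tested in 10 classes (-0.15 to 0.63, smallest adjusted p 0.294). Its largest difference was in ascites T cells, at 83.4, 108, 77.8 and 132 CPM in vehicle and 130, 211, 125 and 201 CPM in treated mice. The arms overlapped there, and the difference was 0.63 ± 0.23.

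Genes around the STATs were read from a list of 55 JAKs, feedback regulators, phosphatases, receptors and ligands, and from 30 known STAT target genes. The share of all genes that passed in either direction is given again in brackets for each class. Of the pathway list, 5 genes rose and 2 fell among 31 tested in ascites B cells (7.22%), 3 and 6 of 29 in cDC1 (16.1%), 2 and 1 of 28 in cDC2 (3.48%), 2 and 8 of 36 in macrophages (13.6%), and 1 and 1 of 27 in T cells (0.785%). In spleen, 1 rose and 1 fell of 34 in B cells (4.47%), 1 fell of 36 in T cells (2.42%), 1 fell of 22 in CD8 T cells (1.74%), and none of 13 passed in CD4 T cells (0.367%). In blood, 1 rose and 1 fell of 31 in B cells (1.01%), 1 rose of 11 in NK cells (0.543%), and none passed of 19 in T cells (0.227%) and 15 in CD8 T cells (0.0411%). No count is read as particular to the list. The median log2 difference of the tested list members was 0.13 in ascites B cells and -0.18 in macrophages, against 0.01 over all genes in each.

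In ascites B cells, Ptpn6, which encodes the phosphatase SHP-1, fell by 1.18 ± 0.19 on the log2 scale (adjusted p = 2.30e-05), and Ptpn1, another phosphatase that acts on JAKs, fell by 0.66 ± 0.15 (adjusted p = 0.00226). The receptor chains Ifngr1, for interferon-gamma, and Il10ra, for IL-10, rose by 0.77 ± 0.19 and 0.88 ± 0.22 (adjusted p = 0.00525 for each). In blood B cells Ptpn6 also fell, by 0.62 ± 0.10 (adjusted p = 4.47e-06), and in spleen B cells Ptpn1 fell by 0.39 ± 0.11 (adjusted p = 0.0200). With at most 5% mitochondrial UMIs these B cell calls were lost, with Ptpn6 at -0.59 and Ptpn1 at -0.27 in ascites. Irf9, the DNA-binding partner of STAT2, rose in spleen B cells by 0.68 ± 0.17 (adjusted p = 0.00847), and Pias1, an inhibitor of STAT binding, rose in blood B cells by 0.73 ± 0.19 (adjusted p = 0.0307). The Pias1 call was lost in 8 of 16 alternatives (adjusted p up to 0.293), among them without vehicle mouse 1 or 2 or treated mouse 2 or 3 (0.61 to 0.77). Irf9 was lost without vehicle mouse 1 (0.57, adjusted p = 0.0920), and Ptpn1 in spleen without vehicle mouse 2 or treated mouse 2 (-0.29 for each).

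In cDC1, Ifngr1 fell by 0.77 ± 0.10, Ptpn1 by 1.04 ± 0.14 and Lifr, a receptor chain for LIF, by 2.05 ± 0.29, while Csf2rb, the shared beta chain of the GM-CSF receptor, rose by 0.87 ± 0.13. In cDC2, Csf2rb rose by 1.29 ± 0.28 and Il7r, the IL-7 receptor chain, by 2.17 ± 0.56, and Lifr fell by 1.63 ± 0.46. These cDC2 calls rest on 2 mice per arm: that of Csf2rb was lost without vehicle mouse 3 (0.98, adjusted p = 0.266), that of Lifr without vehicle mouse 1 (-1.11, adjusted p = 0.732) or treated mouse 1 (-1.31, adjusted p = 0.219), and that of Il7r without vehicle mouse 1 (2.22), vehicle mouse 3 (2.07) or treated mouse 4 (1.62). Csf2rb has a near-identical copy, Csf2rb2, and its count is uncertain for that reason. In macrophages Il7r rose by 2.28 ± 0.30, and Il13ra1 and Il4ra, chains of the IL-4 and IL-13 receptors, fell by 1.14 ± 0.18 and 0.61 ± 0.14, with Lifr lower by 0.91 ± 0.19. In ascites T cells Il6ra, for IL-6, fell by 1.31 ± 0.24 and Ifngr1 rose by 0.75 ± 0.15 (not called without vehicle mouse 2, 0.71, adjusted p = 0.0876), and in blood NK cells Ifngr1 rose by 0.91 ± 0.14.

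Of the 30 target genes, 7 rose and 1 fell among 17 tested in ascites macrophages (13.6% of all genes passed there), 3 rose of 14 in cDC2 (3.48%), and 1 rose and 1 fell of 10 in cDC1 (16.1%) and of 11 in ascites B cells (7.22%). None of 10 passed in ascites T cells (0.785%). In spleen, 3 rose and 1 fell of 16 in B cells (4.47%), and 1 rose and 2 fell of 23 in T cells (2.42%). Among subsets of those T cells, CD8 cells had 2 of 10 lower (1.74%) and CD4 cells none of 4 past the threshold (0.367%). In blood 1 fell of 10 in NK cells (0.543%), and none passed of 12 in B cells (1.01%), 7 in T cells (0.227%) and 5 in CD8 T cells (0.0411%). The median difference of the tested target genes in macrophages was 0.33, against 0.01 over all genes.

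In macrophages, where Stat2 rose, the interferon-induced genes Irf7 (1.91 ± 0.25), Zbp1 (1.19 ± 0.16), Isg15 (1.28 ± 0.21) and Oasl1 (2.46 ± 0.42) rose, each with an adjusted p at or below 0.00404. In cDC2, Isg15 (2.87 ± 0.54), Irf7 (3.13 ± 0.70) and Zbp1 (2.18 ± 0.56) rose with 2 mice per arm. Isg15 there was at 0.58 (adjusted p = 0.443) when cells were assigned by an 80% share of hashtag UMIs, which moved Irf7 to 1.44 and Zbp1 to 1.02. Without vehicle mouse 3 the cDC2 calls of Isg15 (2.34), Irf7 (2.65) and Zbp1 (2.08) were lost, and that of Zbp1 also without vehicle mouse 1 (2.22) or treated mouse 1 (1.30, adjusted p = 0.586). In cDC1 Irf7 rose by 0.94 ± 0.25, and the call was lost without treated mouse 1 (0.61, adjusted p = 0.107). In spleen B cells Zbp1 rose by 1.11 ± 0.22 and Ifit3 by 1.06 ± 0.33, the latter sharing sequence with a near copy, Ifit3b. The call of Zbp1 was kept in all 16 alternatives run, while that of Ifit3 was lost in 8 of 16 (adjusted p up to 0.305), among them without each vehicle mouse and without treated mouse 2 or 4 (0.81 to 1.20).

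Fcer2a, the low-affinity IgE receptor gene that STAT6 activates, rose in B cells of ascites (1.04 ± 0.18, adjusted p = 0.000118) and spleen (0.72 ± 0.12, adjusted p = 2.01e-05). Without the clusters held by 1 arm it did not pass in ascites (0.72, adjusted p = 0.0760). Bcl2, an anti-apoptotic gene and STAT5 target, fell in ascites B cells by 0.75 ± 0.18, in spleen T cells by 0.84 ± 0.11 and in spleen CD8 T cells by 0.79 ± 0.14. Its ascites B cell call was lost in 1 of 20 alternatives (adjusted p up to 0.761). Socs2, a STAT5-induced feedback regulator, fell in spleen T cells by 1.63 ± 0.25 (adjusted p = 1.21e-06), and Socs3, the feedback regulator of STAT3, fell in spleen CD8 T cells by 1.05 ± 0.30 (adjusted p = 0.0493). The Socs3 call was lost in 12 of 16 alternatives (adjusted p up to 0.260), among them without any 1 of the 6 mice (-0.96 to -1.14). In spleen T cells with no UMI of the B cell markers, Bcl2 (-0.24, adjusted p = 0.796) and Socs2 (-2.57, adjusted p = 0.0596) did not pass. NK markers were allowed in those T cells. Junb, a STAT3 target, fell in spleen B cells by 0.77 ± 0.09 and in blood NK cells by 0.50 ± 0.12 (adjusted p = 0.0499), a call lost when any of 5 of the 6 mice was left out. Il4ra, on both lists, fell in cDC1 by 0.95 ± 0.17, and Isg15 rose in spleen T cells by 0.77 ± 0.14. That Isg15 call was lost in 2 of 18 alternatives (adjusted p up to 0.575).

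**Figure D5:**
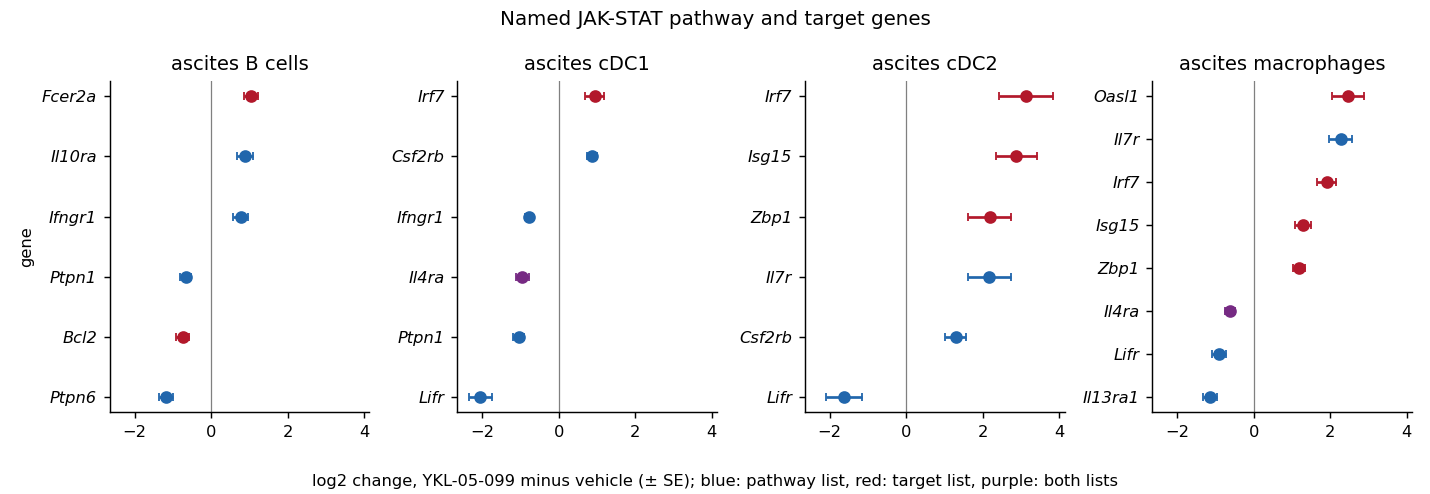
Change after treatment (x axis, log2 of treated over vehicle, with standard error) of the named pathway and target genes (y axis) in 4 ascites classes; blue points are pathway genes, red points target genes and purple points genes on both lists. The interferon-induced genes of macrophages lie between 1.19 and 2.46, and Ptpn6 in ascites B cells at -1.18.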

How the data were processed

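The authors deposited whole-number UMI counts per gene and cell barcode for both messenger RNA libraries, and counts of hashtag UMIs per barcode, as filtered matrices. Cell Ranger 6.1.1 and the build mm10 are named per the submitters' processing notes, and the annotation and the strand setting were not given in the sources used here. The members and all gene lists were chosen with earlier results of these data known.

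Barcodes below 200 detected genes or 500 UMIs, or above 10% mitochondrial UMIs, were dropped. HTODemux (Seurat 5.3.0, positive quantile 0.99) called 37.9% of kept ascites barcodes and 33.7% of the others as hashtag doublets, which were left out, as were 22.8% and 16.9% without a hashtag. No doublet caller was run, so doublets within a mouse remain apart from 70 and 189 cells that met the gates of several lineages. Marker gates used several detected markers per class. Counts were summed per mouse and class with at least 20 cells and tested where 2 mice per arm had them, in edgeR 4.0.16 (R 4.3.3): TMM, filterByExpr, robust quasi-likelihood F test, two-sided, Benjamini-Hochberg over all genes of the fit, threshold 0.05. The fit was tested on simulated data. SE is the absolute log2 change over the square root of F. CPM divides by all UMIs of the sum. No test used cells as replicates.

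Named were all 6 members, and per class up to 4 pathway and 4 target genes with the smallest p among those past the threshold. Likeness to Stat4 was Pearson's r of log2(CPM + 10) among genes with at least 20 CPM in 1 group. Equal mouse numbers in the 2 arms are different animals, and deviations of same-numbered mice correlated at -0.015 to 0.036 in ascites B cells and 0.0019 to 0.279 in ascites T cells (-0.036 to 0.091 in B and T cells of spleen and blood, 2 pairs each). No class had every pair over 0.1, so numbers were not taken as pairs. Alternatives were another hashtag rule, a stricter mitochondrial limit, Leiden clusters (scanpy 1.11.5, leidenalg 0.10.2), a strict gate (for lymphoid lists only), other cell minimums, DESeq2 1.42.0 size factors and Wald test, no count filter, the replicate block and leaving out each mouse. One further alternative, without clusters in which at least 95% of at least 50 cells of a class came from 1 arm, was chosen after seeing the data.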

Additional observations from a re-analysis of the deposited data

Results flagged for a closer look

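In 48 groups of 4 mice, 4 single mice stood apart from the other 3 by Dixon's criterion, where chance gives about 1 in 20. Stat4 of vehicle mouse 3 was the lowest in ascites B cells, at 62.9 CPM against 82.9 to 86.0 CPM in the other vehicle mice. The same mouse was the lowest for Stat4 in ascites T cells, at 56.6 CPM against 118 to 129 CPM. Vehicle mouse 1 was the lowest for Stat4 in cDC1, at 2.27 CPM against 7.17 to 8.06 CPM, and the highest for Stat6 in macrophages, at 75.0 CPM against 61.3 to 63.3 CPM.

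Of 60 differences between treatment effects, computed for 6 members in 10 fits, 4 passed an adjusted p of 0.05 over all genes of their fit (edgeR's quasi-likelihood test). Of all genes, 0.0421% to 4.84% passed in these fits, and the count is not read as particular to the members. The change of Stat4 in B cells was larger in ascites than in blood by 0.89 on the log2 scale. In ascites it was larger in B cells than in T cells by 1.42 and than in macrophages by 1.02. The change of Stat2 in ascites B cells minus that in macrophages was -1.45.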

How the results depend on the processing

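Stat4 in ascites B cells kept its call under all 20 alternatives run (1.47 to 1.83), as did Stat4 in cDC1 and Stat2 in macrophages under theirs. With cells assigned by an 80% share of hashtag UMIs, passing pairs numbered 10 instead of 5 in ascites, 2 instead of 1 in spleen and 38 instead of 25 in the class profile. That rule kept more cells (6419 against 4368 in ascites, 6741 against 5682 in spleen and blood). With at most 5% mitochondrial UMIs, spleen and blood had 0 each, and the Stat4 difference of B cells fell to 1.12 against T cells (adjusted p = 0.788) and 0.77 against macrophages (adjusted p = 0.674). The profile had 16 pairs with the strict gate and 14 with at least 50 cells per mouse, and spleen had 3 with at least 10. Leaving out mice gave 4 to 6 pairs in ascites, 1 to 2 in spleen and 18 to 24 in the profile. The share of all genes was not taken under the alternatives, so no count here is read as particular to the members. Stat4 in cDC2 was 1.76 with DESeq2's Wald test (adjusted p = 0.104) and 1.55 to 1.92 without single mice. In migratory dendritic cells it passed with the 80% rule (1.25), with no count filter (1.47) and without vehicle mouse 1 (1.96); left-out values ran from 1.07 to 1.96. The difference of B cells from cDC1 passed with the 80% rule (-1.34), Leiden clusters (-1.37) and without clusters held by 1 arm (-1.26). The difference from macrophages did not pass with the strict gate (1.01), at least 50 cells (0.85), the Wald test (1.08) or without clusters held by 1 arm (0.46), and ran from 0.94 to 1.21 without single mice. The replicate block left Stat4 in ascites B cells at 1.75 (adjusted p = 2.07e-08), ended the blood B cell call (0.49, adjusted p = 0.414), which left 0 pairs in blood, and changed no other call of a member; equal numbers mark different animals.

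In the class profile, a different set of classes changes the contrast by construction. Where the value before or after passed, signs turned with at least 10 cells for Stat3 in cDC2 (-0.053) and Stat4 in blood T cells (0.88, and 0.98 with the 80% rule). With at least 50 cells they turned for Stat4 in blood T cells (0.88) and spleen B cells (-1.59), Stat5a in ascites B cells (0.27), Stat5b in spleen B cells (-0.94) and Stat6 in spleen T cells (-0.012). With the strict gate they turned for Stat4 (-1.41) and Stat6 (-0.16) in spleen B cells and Stat5b in blood T cells (-0.31), and without vehicle mouse 2 for Stat6 in spleen B cells (-0.038, with values up to 1.23 without other mice). The cause of other changes was not tested. Over all alternatives, 1036 of 1061 comparisons for members, 851 of 974 for profiles and 682 of 764 for pathway and target genes kept their side of the threshold and, where called, their direction; signs of values that never passed were not read. Fits of cDC2 and migratory dendritic cells with at least 50 cells could not be made. Low counts limit cDC1 of vehicle mice, with 3 to 7 Stat4 UMIs each.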
